A study of Homo sapiens with 3 samples.

Results

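The comparison described here sets AGS cells treated for 48 h with 18 µM SFE against AGS cells treated for 48 h with 12 µM SFA. AGS is an established human gastric adenocarcinoma line, grown in RPMI-1640 with fetal bovine serum and antibiotics. SFA and SFE are compound names whose meaning is not given in the sources used here. Both libraries were made from total RNA depleted of ribosomal RNA, and they are 2 of the 3 samples of the series. The remaining sample, treated with DMSO as the negative control, does not enter. There is 1 library a side, so no difference can be set against a spread between cultures and no p-value is given. The doses differ, so a value stands for 1 library at 12 µM and 1 at 18 µM, not for the compounds at a shared dose.

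The SFA library held 13639844 counts and the SFE library 13644676, with 10708 and 10916 genes at 1 FPKM or more (counts set against the gene's length and the total of the library). Protein-coding genes took 94.7% of the counts with SFA and 94.4% with SFE. A gene was kept when it reached 1 FPKM in either library, with 1 identifier per gene name, the one with the highest mean FPKM. This left 11356 of 50868 listed genes, 9251 of them protein-coding. Of the kept genes, 10245 reached 1 FPKM in both libraries, 453 only with SFA and 658 only with SFE.

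Epithelial cells are marked by simple keratins and junction proteins. KRT8 stood at 223 FPKM with SFA and 232 with SFE, KRT18 at 292 and 294, and KRT7 at 161 and 151. Other markers of a gastric epithelial line were close to absent in both libraries: EPCAM, an epithelial adhesion protein, stood at 0.223 and 0.0685 FPKM, CDH1 (E-cadherin) at 0.162 and 0.0811, and KRT19 at 0.103 and 0.0514. CLDN4, a tight junction protein, stood at 1.97 and 1.72 FPKM, CLDN7 at 0.438 and 0.55, and CLDN3 at 0.173 with SFA and 0 with SFE.

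Some of the gene lists described below are named for programs with known regulators, and the activity of these regulators was not measured. NRF2 is a transcription factor that oxidants and electrophiles release from its inhibitor KEAP1, and its targets make glutathione, reduce thioredoxin, break down heme and supply NADPH. SREBP factors turn on the enzymes of cholesterol and fatty acid synthesis when membrane sterols are low. The BCL2 family holds proteins that guard the outer mitochondrial membrane, such as MCL1 and BCL2L1, and proteins that open it, such as BAX and BAK1.

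The libraries were close to each other across most genes. On the scale of log2(FPKM + 1), SFE minus SFA, the median difference was 0.024, the SD over genes was 0.34 and the central 95% of genes lay between -0.55 and 0.62. A total of 9237 genes (81.3%) lay within 1.2-fold. Across genes, Pearson's r was 0.977 and Spearman's rho 0.969, a description over genes that are not independent replicates. Of all kept genes, 6318 (55.6%) were higher with SFE and 5038 (44.4%) lower, by any amount. At 2-fold on the same scale, 79 genes (0.696%) were higher with SFE and 72 (0.634%) lower, together 1.33%. These shares are the background against which each gene list below can be read.

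**Figure D1:**
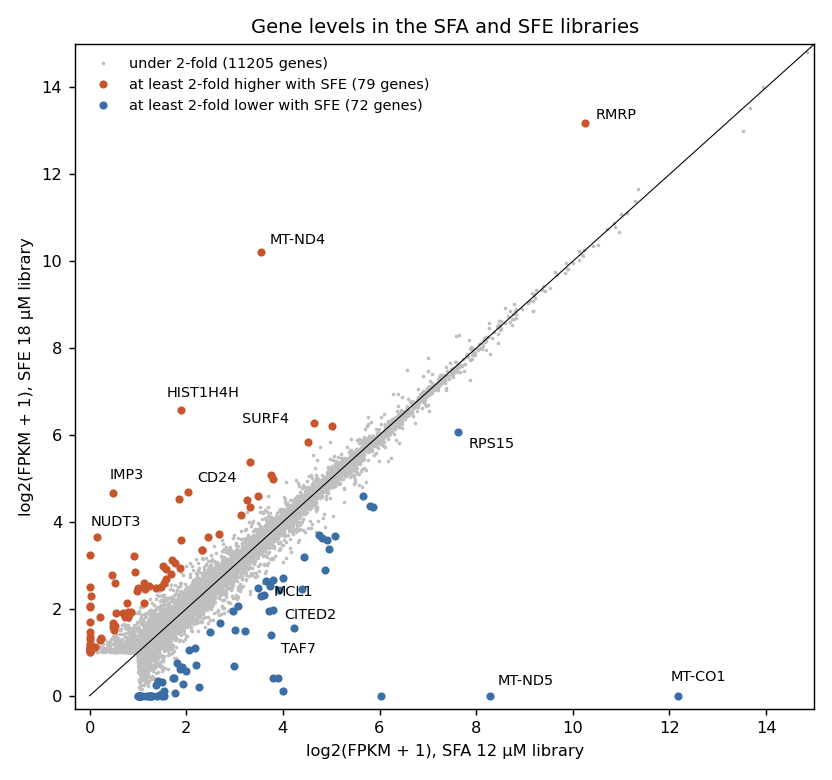
Level of each kept gene in log2(FPKM + 1) with 12 µM SFA (horizontal axis) and 18 µM SFE (vertical axis), 1 library each. The line marks equal levels. Grey points are the genes under 2-fold, orange points the 79 genes at least 2-fold higher with SFE and blue points the 72 at least 2-fold lower. Most genes lie on the line, and MT-CO1, MT-ND5 and MT-ND4 lie farthest from it.

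Genes past 2-fold were spread over the whole range of levels. They made up 2.09% of genes under 2 FPKM on average, 0.969% of those from 2 to 5, 1.06% from 5 to 20, 0.971% from 20 to 100 and 1.85% at 100 FPKM or more. The median difference over all kept genes fell with level. It was 0.045 under 2 FPKM, -0.0016 from 20 to 100 and -0.032 at 100 FPKM or more. Of the 151 genes past 2-fold, 88 were protein-coding and 63 belonged to other classes. Of the kept genes, 7500 (66.0%) overlap another listed gene, and whether the counting used strand is not given in the sources used here, so the reads of such genes cannot be told apart with certainty. Among the 3856 genes that overlap none, 19 (0.493%) were at least 2-fold higher with SFE and 25 (0.648%) at least 2-fold lower.

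Reference genes and the gene lists differed little. TMEM164, a gene linked to ferroptosis lipids, stood at 9.42 FPKM with SFA and 9.32 with SFE. GAPDH, a glycolytic enzyme often used as a reference, was 1.02-fold lower with SFE by counts and ACTB, cytoplasmic actin, 1.08-fold lower. A fold given for a single gene is the ratio of its counts, each divided by the library's total, with an exact (Clopper-Pearson) 95% interval that covers counting error only. Among the 37 pathway lists, medians ran from -0.16 for NRF2 targets to 0.13 for cholesterol synthesis.

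**Figure D2:**
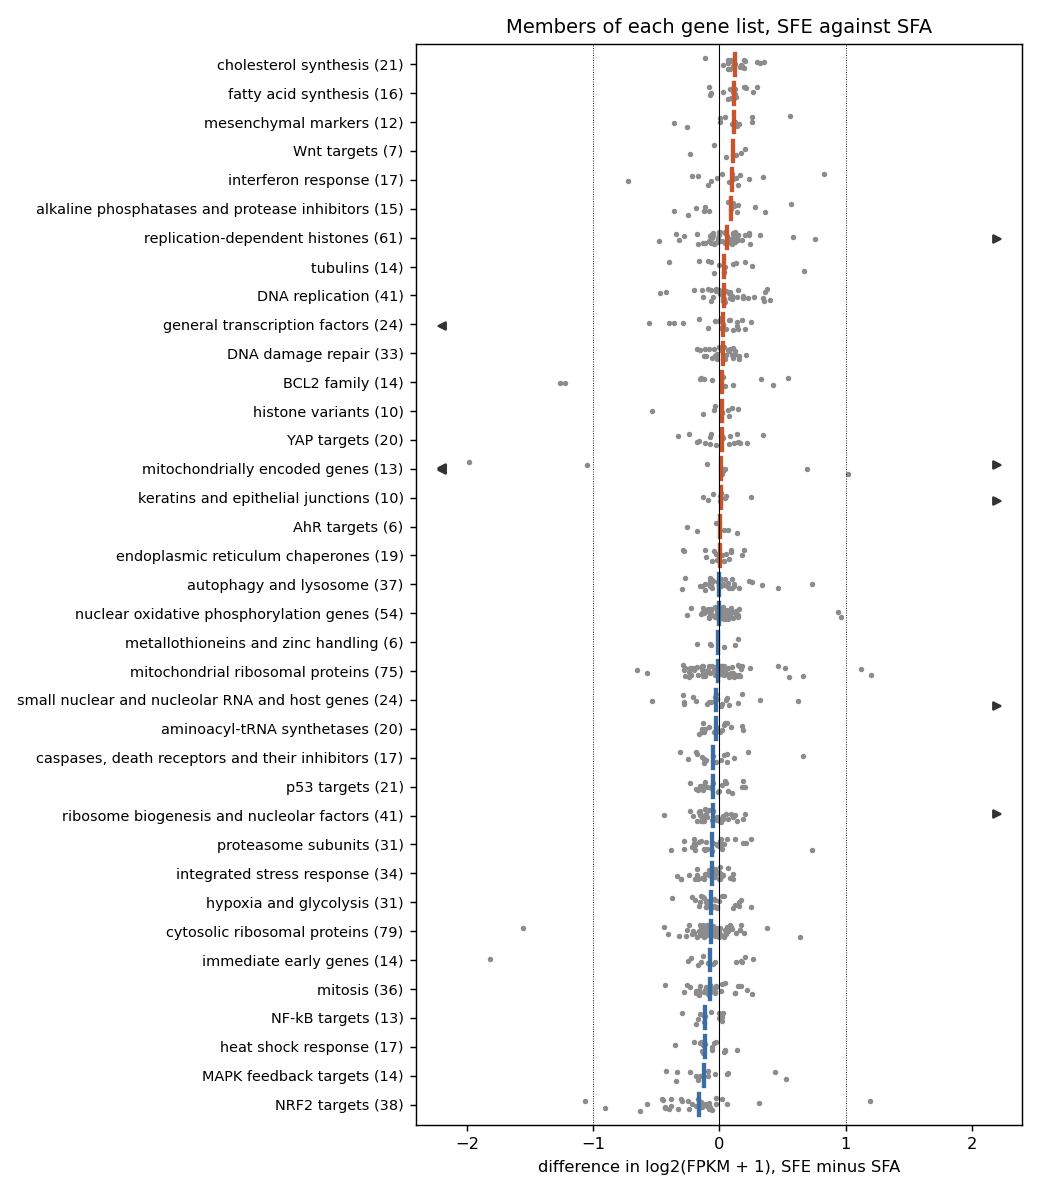
Difference in log2(FPKM + 1), SFE minus SFA, of the measured members of 37 gene lists, with the number of measured members in brackets. Each point is a gene, the thick bar is the list's median (orange above 0, blue below), the dotted lines mark 2-fold and triangles stand for genes beyond the axis. Medians lie between -0.16 and 0.13, and most members lie within 2-fold.

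Targets of NRF2 were mostly lower with SFE 18 µM than with SFA 12 µM. Of 38 measured targets, 34 were lower and 4 higher, beside 44.4% lower over all genes, and the median difference was -0.16 beside 0.024. Of the 12 targets that overlap no other listed gene, 12 were lower, with a median of -0.20. On the log2(FPKM + 1) scale 2 of the 38 (5.26%) passed 2-fold, 1 in each direction, beside 1.33% of all kept genes. The 1 on the higher side was AKR1C3, whose direction depends on how its identifiers are joined. This list was chosen with earlier results of these data known, so its direction is a description of these libraries.

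Among the targets that were lower with SFE, TRIM16L and OSGIN1 differed most. TRIM16L, a TRIM16-like gene, had 49.6 FPKM with SFA and 23.2 with SFE, 2.14-fold lower (95% counting interval 2.05 to 2.24). OSGIN1, a growth inhibitor that oxidative stress induces, had 8.96 and 4.31 FPKM, 2.08-fold lower (1.82 to 2.38). TRIM16, a ubiquitin ligase and no member of the list, stood at 17.0 and 8.87 FPKM and was named after its value was seen.

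Enzymes of heme breakdown, iron storage and glutathione supply were lower by smaller amounts. HMOX1, which breaks down heme, stood at 48.3 FPKM with SFA and 35.1 with SFE, 1.38-fold lower (1.29 to 1.47). FTH1, the ferritin heavy chain, stood at 310 and 230 FPKM, and FTL, the light chain, was 1.07-fold lower. SLC7A11, the cystine importer, stood at 19.4 and 14.1 FPKM. The glutathione synthesis subunits GCLC and GCLM stood at 5.51 and 3.93 FPKM and at 14.2 and 10.7 FPKM. GSR, which reduces oxidised glutathione, stood at 124 and 100 FPKM. SRXN1, which repairs peroxiredoxins, stood at 105 and 76.8 FPKM.

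Thioredoxin and NADPH enzymes differed less. TXN stood at 277 FPKM with SFA and 250 with SFE, and its reductase TXNRD1 at 44.1 and 38.6. PGD, an NADPH-producing enzyme of the pentose phosphate pathway, was 1.19-fold lower (1.15 to 1.23). NQO1, a quinone reductase, stood at 112 and 110 FPKM, a ratio of 1.02 whose counting interval (0.986 to 1.05) includes 1. NFE2L2, the gene of NRF2 itself, stood at 3.46 and 3.57 FPKM.

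The aldo-keto reductases of the AKR1C cluster on chromosome 10, which reduce steroids and reactive carbonyls, overlap each other. AKR1C1 (chromosome 10, 4963253 to 5107522) stood at 62.4 FPKM with SFA and 41.6 with SFE, 1.5-fold lower (1.45 to 1.55). AKR1C2 stood at 13.3 and 8.25 FPKM. AKR1C3 is listed under 2 identifiers: the one kept by level had 418 counts with SFA and 974 with SFE, while the other had 2241 and 803. The sum of both was 2659 and 1777 counts, 1.5-fold lower with SFE (1.41 to 1.59), against the 2.33-fold higher value of the kept identifier. The 2 identifiers have different lengths in the deposited FPKM, and their FPKM summed was higher with SFE, by 0.53 on the log2(FPKM + 1) scale. The direction of AKR1C3 therefore depends on how its identifiers are joined. The whole locus, with AKR1C1 and AKR1C2, held 13129 counts with SFA and 8687 with SFE, 1.51-fold lower.

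The small MAF proteins pair with NRF2 on DNA. MAFG stood at 11.8 FPKM with SFA and 14.9 with SFE, 1.26-fold higher (1.17 to 1.36). MAFK, which is no member of the list and was named after its value was seen, stood at 7.04 and 1.86 FPKM. MAFK overlaps another gene, and the counts of that locus were 1101 with SFA and 591 with SFE.

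The antioxidant response element, at which NRF2 with a small MAF binds, was searched as TGACNNNGC on both strands of the 250 bases before each RefSeq gene start (build GRCh38.p14). This motif can overlap the AP-1 motif TGANTCA. A promoter was found by symbol for 27 of the 38 targets, and 5 of them held the motif (18.5%), beside 3830 of 35116 promoters of the same length (10.9%). The 5 were PGD, GCLM, ME1, TXNRD1 and CBR1, all of which had the higher value with SFA, as did 34 of all 38 targets. A match is a description of the letters and not a binding site. The promoters of TXNRD1, GCLM and ME1 are shown, with the match in capitals, because they stand before genes of separate arms of the program: the thioredoxin reductase (chr12:104215529-104215778, plus strand), the glutathione synthesis subunit (chr1:93909431-93909680, minus strand) and malic enzyme, a source of NADPH (chr6:83431052-83431301, minus strand).
TXNRD1: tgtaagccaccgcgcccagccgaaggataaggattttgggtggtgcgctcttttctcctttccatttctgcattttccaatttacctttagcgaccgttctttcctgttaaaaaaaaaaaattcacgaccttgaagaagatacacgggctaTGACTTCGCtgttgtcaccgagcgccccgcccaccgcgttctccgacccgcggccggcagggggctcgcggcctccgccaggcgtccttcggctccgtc
GCLM: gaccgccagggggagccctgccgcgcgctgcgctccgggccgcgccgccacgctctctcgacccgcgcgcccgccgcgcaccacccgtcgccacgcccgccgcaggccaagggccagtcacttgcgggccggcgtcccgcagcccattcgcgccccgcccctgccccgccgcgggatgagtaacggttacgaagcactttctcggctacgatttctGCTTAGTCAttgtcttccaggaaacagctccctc
ME1: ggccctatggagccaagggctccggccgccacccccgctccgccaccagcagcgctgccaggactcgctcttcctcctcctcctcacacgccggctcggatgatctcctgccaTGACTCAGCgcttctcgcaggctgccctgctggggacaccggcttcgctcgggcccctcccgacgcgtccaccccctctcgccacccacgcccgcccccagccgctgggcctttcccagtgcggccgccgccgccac
The match began 99 bases before the start in TXNRD1, 34 in GCLM and 137 in ME1. With SFE the genes themselves were 1.14-fold (1.11 to 1.18), 1.33-fold (1.23 to 1.44) and 1.06-fold (0.974 to 1.15) lower, so the last of these was within counting error.

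Genes of lipid synthesis stood on the opposite side. Of 21 measured genes of cholesterol synthesis, 20 were higher with SFE, beside 55.6% over all genes, with a median difference of 0.13 that was 0.072 under upper-quartile scaling. None passed 2-fold. HSD17B7, a sterol reductase, stood at 1.59 FPKM with SFA and 2.30 with SFE, 1.45-fold higher (1.16 to 1.81). MVK, mevalonate kinase, stood at 1.94 and 2.68 FPKM, 1.38-fold higher (1.19 to 1.60). HMGCS1, which makes the precursor of mevalonate, stood at 3.94 and 5.07 FPKM. SQLE, which oxidises squalene, stood at 6.22 and 7.11 FPKM. NSDHL, the 1 gene with the lower value, stood at 15.5 and 14.2 FPKM, and its counting interval includes 1.

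Fatty acid synthesis showed the same side with smaller steps. Of 16 measured genes, 13 were higher with SFE, with a median of 0.12 (0.064 under upper-quartile scaling). SCD, which puts the first double bond into fatty acids, stood at 110 FPKM with SFA and 133 with SFE, 1.21-fold higher (1.17 to 1.24). FASN, the fatty acid synthase, stood at 166 and 177 FPKM, and ACLY, which supplies acetyl-CoA, at 99.0 and 108. PNPLA3, a lipid hydrolase, was 1.27-fold higher (1.11 to 1.46) and SREBF1, the gene of the factor itself, 1.17-fold higher (1.11 to 1.23).

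The sterol regulatory element was searched as TCACNCCAC on both strands of the same windows. It was found in 1 of 15 promoters of the cholesterol list and in 0 of 14 of the fatty acid list. It was also found in 1 of 27 promoters of the NRF2 targets (PIR), beside 0.883% of all promoters. The match in the cholesterol list lay before SREBF2, the gene of the sterol-sensing factor (chr22:41832855-41833104, plus strand), and began 133 bases before the start. It is shown with the match in capitals because it lies before a regulator of the list.
SREBF2: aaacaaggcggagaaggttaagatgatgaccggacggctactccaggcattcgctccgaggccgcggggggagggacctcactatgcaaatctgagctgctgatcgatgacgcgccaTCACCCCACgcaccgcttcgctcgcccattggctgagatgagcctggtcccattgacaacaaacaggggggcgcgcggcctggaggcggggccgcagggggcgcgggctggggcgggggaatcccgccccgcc
SREBF2 stood at 25.1 FPKM with SFA and 28.2 with SFE, 1.12-fold higher (1.08 to 1.17).

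**Figure D3:**
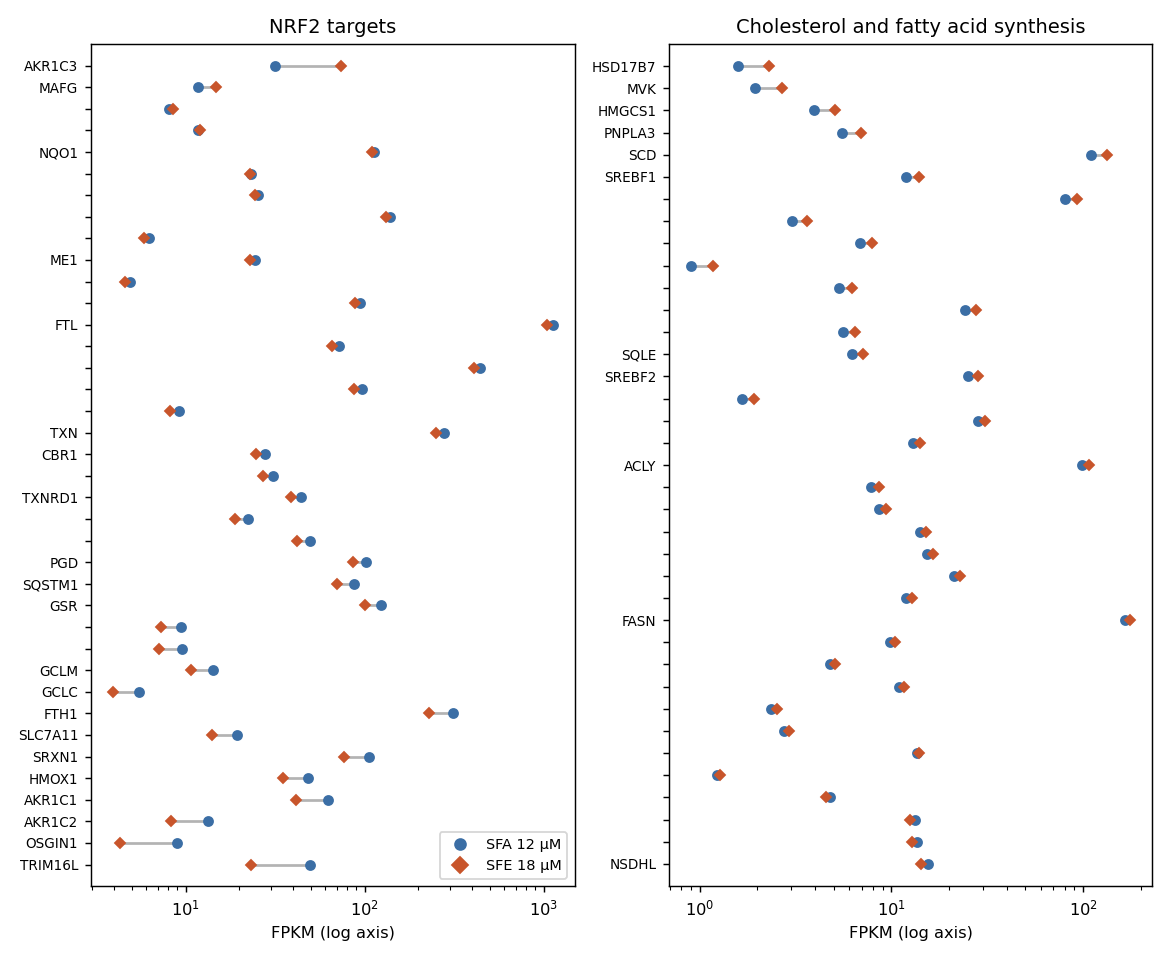
FPKM on a log axis of the 38 measured NRF2 targets (left) and the 37 measured genes of cholesterol and fatty acid synthesis (right), with SFA as circles and SFE as diamonds, 1 library each, and with the genes described in the text labelled. Among NRF2 targets the SFE value lies to the left in 34 of 38 genes. Among lipid genes it lies to the right in 33 of 37. The AKR1C3 row shows 1 of its 2 identifiers.

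Within the BCL2 family the largest differences were in MCL1 and BAK1, which oppose each other at the mitochondrial membrane. MCL1, which protects cells, stood at 10.7 FPKM with SFA and 3.88 with SFE, 2.76-fold lower (2.49 to 3.06). It lies on chromosome 1 (150574551 to 150579738) in a locus with ADAMTSL4, and the locus held 1486 counts with SFA and 645 with SFE, so the locus was lower too. BAK1, which opens the membrane, stood at 20.5 and 8.22 FPKM, 2.50-fold lower (2.23 to 2.80). BCL2L1, the gene of BCL-XL, stood at 10.0 and 8.97 FPKM and BAX at 8.55 and 7.60.

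BH3-only members, which set the other proteins free or hold them, had low levels. BCL2L11 (BIM) stood at 2.57 FPKM with SFA and 3.49 with SFE, 1.36-fold higher (1.21 to 1.52), and BMF at 0.75 and 1.35. BIK stood at 1.0 and 1.92 FPKM on 13 and 25 counts, and its interval (0.947 to 4.09) includes 1. Of 14 measured family members, 8 were higher and 6 lower. The family's median was 0.021 and turned to -0.023 under upper-quartile scaling.

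Of 17 measured caspases, death receptors and their inhibitors, 7 were higher and 10 lower, with none past 2-fold. CASP2 stood at 5.10 FPKM with SFA and 8.67 with SFE, 1.70-fold higher (1.57 to 1.84). DIABLO, which binds the caspase inhibitors, stood at 7.91 and 6.19 FPKM. BIRC5 (survivin) stood at 41.5 and 40.8 FPKM. Of 21 measured p53 targets, 8 were higher and 13 lower, and CDKN1A, the cell cycle inhibitor p21, stood at 19.0 and 17.3 FPKM.

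Stress programs other than the NRF2 targets had small differences, mostly lower with SFE. Of 34 measured genes of the integrated stress response, which follows phosphorylation of a translation factor, 25 were lower, with a median of -0.059. ATF4, its transcription factor, stood at 127 FPKM with SFA and 102 with SFE, 1.24-fold lower (1.2 to 1.28). CHAC1, which degrades glutathione, was 1.35-fold lower (1.13 to 1.62). Of 17 heat shock genes, 13 were lower, with a median of -0.12, and HSPD1, a mitochondrial chaperone, stood at 40.8 and 31.7 FPKM. Endoplasmic reticulum chaperones were split, with 10 higher and 9 lower. Among them HYOU1 stood at 18.3 and 14.8 FPKM and HSP90B1 at 11.7 and 13.5. Of 20 aminoacyl-tRNA synthetases, 8 were higher and 12 lower, and each stayed within 1.2-fold.

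Feedback targets of the MAPK pathway and targets of NF-kB lay on the same side. Of 14 measured MAPK targets, 10 were lower, with a median of -0.12. ETV4, an ETS factor, stood at 13.1 FPKM with SFA and 9.52 with SFE, 1.38-fold lower (1.27 to 1.5), and FOSL1, an AP-1 subunit, was also 1.38-fold lower (1.11 to 1.72). IER3 and SPRED2, an inhibitor of the pathway, went the other way, at 119 and 162 FPKM and at 3.40 and 5.35 FPKM. Of 13 NF-kB targets, 10 were lower, and NFKB2, a subunit of NF-kB, was 1.25-fold lower (1.15 to 1.36).

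Immediate early genes were split, and CITED2 stood apart from the rest. CITED2, a regulator that competes with hypoxia factors for a coactivator, lies on chromosome 6 (139371807 to 139374620) and stood at 12.9 FPKM with SFA and 2.94 with SFE, 4.39-fold lower (3.77 to 5.13). Of 14 measured immediate early genes, 9 were lower, and the other 13 differed by at most 0.27 on the log2(FPKM + 1) scale. MYC stood at 59.8 and 69.2 FPKM and JUN at 6.96 and 5.82.

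Interferon response genes and YAP targets showed no shared side that held in each setting. Of 17 interferon response genes, 11 were higher with SFE with a median of 0.10, but the median was -0.023 over the 6 that overlap no other gene. IFITM1, an antiviral membrane protein, stood at 10.5 FPKM with SFA and 19.3 with SFE, 1.85-fold higher (1.60 to 2.13). B2M, the light chain of MHC class I, stood at 46.4 and 27.7 FPKM, 1.67-fold lower (1.61 to 1.73). Of 20 YAP targets, 11 were higher and 9 lower, with a median of 0.018 that turned to -0.033 under upper-quartile scaling. Among them were CTGF at 43.3 and 36.4 FPKM and CYR61 at 72.1 and 63.5, both matricellular proteins. Of 7 Wnt targets, 5 were higher, with a median of 0.11. CCND1 (cyclin D1) was 1.18-fold lower (1.13 to 1.23).

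Mitosis genes were mostly lower with SFE and replication genes were not. In bulk RNA, fewer cells in a phase and less RNA per cell cannot be told apart. Of 36 measured mitosis genes, 27 were lower, with a median of -0.074. PLK1, a mitotic kinase, stood at 49.1 FPKM with SFA and 36.2 with SFE, 1.35-fold lower (1.30 to 1.41), while MKI67, a proliferation marker, stood at 3.23 and 4.06 FPKM, 1.26-fold higher (1.14 to 1.38). Of 41 DNA replication genes, 27 were higher, with a median of 0.038 that turned to -0.0057 under upper-quartile scaling. POLE, the leading strand polymerase, stood at 9.90 and 13.2 FPKM, 1.33-fold higher (1.27 to 1.39). TK1, a salvage kinase of thymidine, stood at 46.6 and 33.3 FPKM, 1.40-fold lower (1.31 to 1.49). Of 33 DNA repair genes, 19 were higher and 14 lower, and none passed 2-fold.

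Among 61 measured replication-dependent histones, 37 were higher and 24 lower, and only HIST1H4H passed 2-fold. HIST1H4H encodes a copy of histone H4 (chromosome 6, 26277609 to 26285638, minus strand), and copies of histone H4 are alike in sequence. It had 132 counts (2.69 FPKM) with SFA and 4657 counts (95 FPKM) with SFE, 35.3-fold higher (29.7 to 42.3). HIST1H3D stood at 128 and 218 FPKM and HIST1H4A, another copy of H4, at 130 and 93.0. H2AFZ, the replacement histone H2A.Z, stood at 51.9 and 35.6 FPKM, 1.46-fold lower (1.39 to 1.52).

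Ribosomal protein, ribosome biogenesis and proteasome genes shared a slight lower side, with a few single genes apart from it. Autophagy and lysosome genes were split. Of 79 cytosolic ribosomal protein genes, 57 were lower with SFE, with a median of -0.067. Over all kept genes the median was -0.0016 from 20 to 100 FPKM and -0.032 at 100 FPKM or more. RPS15, a protein of the small subunit, stood at 197 FPKM with SFA and 66.3 with SFE, 2.97-fold lower (2.87 to 3.07), and overlaps no other gene. RPL13 stood at 53.5 and 83.7 FPKM, 1.57-fold higher (1.53 to 1.60). Of 41 genes of ribosome biogenesis, 27 were lower, and of 31 proteasome subunits, 20 were lower. PSMA6, a subunit of the core, stood at 5.80 and 10.3 FPKM, 1.78-fold higher (1.64 to 1.94). Of 37 autophagy and lysosome genes, 18 were higher and 19 lower. GABARAPL1, which coats autophagosomes, stood at 2.63 and 5.03 FPKM, and SQSTM1, a cargo receptor that is also an NRF2 target, at 87.0 and 70.5.

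General transcription factors were split, with 15 of 24 higher. TAF7, a subunit of TFIID, had 585 counts with SFA and 78 with SFE, 7.5-fold lower (5.92 to 9.63). It overlaps 2 other genes on chromosome 5 (141260225 to 141320821), which added 1 count with SFA and 0 with SFE, so that the locus held 586 and 78 counts.

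Nuclear genes of oxidative phosphorylation and of the mitochondrial ribosome were level as groups. Of 54 oxidative phosphorylation genes, 26 were higher and 28 lower, with a median of -0.0064. ATP5D, a subunit of ATP synthase, stood at 26.2 FPKM with SFA and 51.9 with SFE, 1.98-fold higher (1.88 to 2.09). COX4I1, a subunit of cytochrome oxidase, stood at 3.60 and 7.83 FPKM, 2.17-fold higher (1.99 to 2.37). COX4I1 overlaps another gene, and the counts of that locus were 1683 and 2378. Of 75 mitochondrial ribosomal proteins, 35 were higher and 40 lower. MRPL10 stood at 10.1 and 23.2 FPKM and MRPS16 at 12.8 and 30.9.

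The 13 protein genes encoded in the mitochondrial genome held the largest single differences. MT-CO1, the catalytic subunit of cytochrome oxidase, had 97155 counts with SFA and 0 with SFE. MT-ND5, a subunit of complex I, had 7710 and 0 counts and MT-CO2, a subunit of cytochrome oxidase, 604 and 0. In the other direction MT-ND4, also of complex I, had 201 counts with SFA and 22427 with SFE, 112-fold higher (97.1 to 129). MT-ND4L, which overlaps MT-ND4, had 115 and 26 counts, 4.42-fold lower (2.87 to 7.06). The counting tool is not given in the sources used here, and whether these counts, the 0s among them, stand for RNA levels or for how reads were assigned was not tested.

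MT-ND1, MT-ND2, MT-ATP6, MT-ND6 and MT-CYB, of the same genome, each differed by less than 1.2-fold. MT-ND1 had 21784 counts with SFA and 22497 with SFE, MT-ND2 had 17122 and 17421, MT-ATP6 had 17275 and 17435, and MT-CYB had 18585 and 17370. MT-ND3, another subunit of complex I, had 900 and 1457 counts, 1.62-fold higher (1.49 to 1.76). The 13 genes together held 184078 counts (1.35% of the library) with SFA and 101371 (0.743%) with SFE. Leaving out the 4 with over 500 counts in 1 library and a difference past 2-fold (MT-ND4, MT-ND5, MT-CO1, MT-CO2), chosen after their values were seen, the other 9 held 78408 and 78944 counts, a ratio of 1.01. MT-CO3 had 43 and 98 counts, 2.28-fold higher (1.58 to 3.34), and MT-ATP8 had 3 and 0, both far under the level of MT-ATP6, which MT-ATP8 overlaps.

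**Figure D4:**
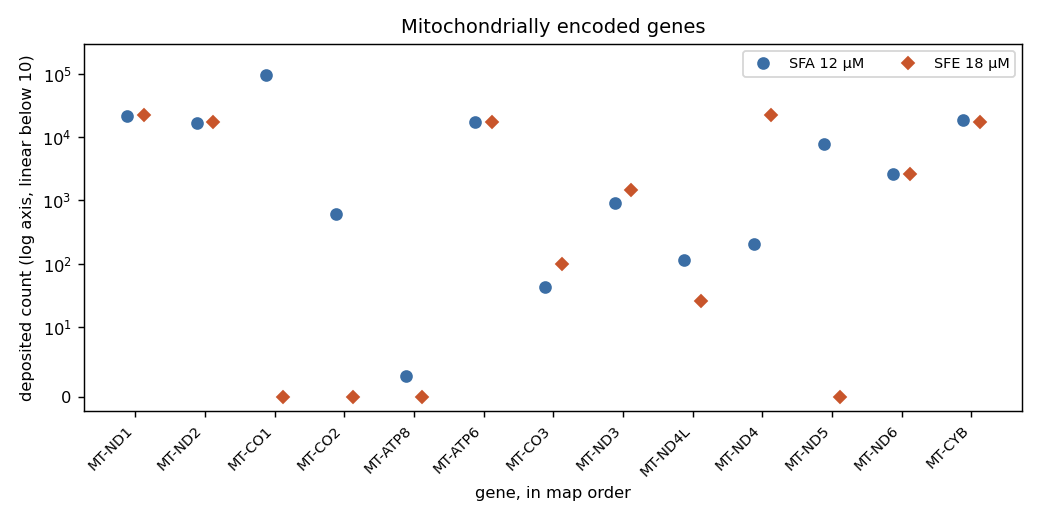
Deposited counts of the 13 protein genes of the mitochondrial genome, in map order, with SFA as circles and SFE as diamonds, on a log axis that is linear below 10. Pairs of symbols coincide for MT-ND1, MT-ND2, MT-ATP6, MT-ND6 and MT-CYB. MT-CO1, MT-CO2, MT-ATP8 and MT-ND5 lie at 0 with SFE, and MT-ND4 lies at 201 with SFA and 22427 with SFE.

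Glycolysis and hypoxia genes were mostly lower with SFE, with 23 of 31 lower and a median of -0.065. ANGPTL4, a lipase inhibitor, stood at 3.29 FPKM with SFA and 2.30 with SFE, 1.43-fold lower (1.21 to 1.69). Of 6 AhR targets, 3 were higher and 3 lower, and CYP1B1, a cytochrome that the receptor induces, stood at 11.0 and 9.05 FPKM. Metallothioneins and zinc handling genes were also split 3 and 3, with MT2A at 46.1 and 40.7 FPKM. Among alkaline phosphatases and protease inhibitors, A2M, a broad protease trap, stood at 24.5 and 36.7 FPKM, 1.5-fold higher (1.43 to 1.57). ALPI, the intestinal alkaline phosphatase, had 14 and 20 counts and stayed under 1 FPKM in both libraries. Of 14 tubulins, 8 were higher, and TUBA1B, an alpha tubulin, stood at 198 and 317 FPKM, 1.60-fold higher (1.57 to 1.63).

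Among epithelial genes CD24 stood apart. CD24, a surface glycoprotein (chromosome 6, 106969831 to 106975627), had 354 counts (3.09 FPKM) with SFA and 2822 counts (24.6 FPKM) with SFE, 7.97-fold higher (7.13 to 8.93). The other 9 measured keratin and junction genes differed by at most 0.25 on the log2(FPKM + 1) scale, which is the value of DSP (desmoplakin), at 12.4 and 14.9 FPKM. Of 12 mesenchymal markers, 10 were higher, with a median of 0.11 that was 0.0038 over the 4 that overlap no other gene. VIM (vimentin) stood at 82.4 and 122 FPKM, 1.48-fold higher (1.44 to 1.51).

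Markers of cell types other than the line were low, apart from some fibroblast markers. Of 9 fibroblast markers 4 were measured, and each of the 4 was higher with SFE. THY1 stood at 6.48 FPKM with SFA and 7.25 with SFE, and COL1A1 at 5.96 and 7.16. Both were above the medians of all kept genes, 4.04 FPKM with SFA and 4.17 with SFE. PDGFRB stood at 2.63 and 2.99 FPKM and COL3A1 at 1.49 and 2.4. The summed level of all 9 was 16.9 FPKM with SFA and 20.1 with SFE, and COL1A2 and PDGFRA were at 0 in both libraries. Their part in the mesenchymal values was not tested. Markers of endothelial cells, hepatocytes, leukocytes and erythroid cells all stayed under 1 FPKM, and PTPRC, CD3E, KDR and ALB were at 0 counts in both libraries, which allows up to 0.220 CPM each.

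Some of the largest single differences lay in genes that overlap no other listed gene. Whether their reads also match copies elsewhere in the genome was not tested. On the higher side, after HIST1H4H and CD24, SURF4, a cargo receptor of the early secretory pathway (chromosome 9, 133361449 to 133376166), stood at 24.1 FPKM with SFA and 77.1 with SFE, 3.20-fold higher (3.06 to 3.34). HIBADH, an enzyme of valine breakdown, stood at 2.27 and 7.71 FPKM, 3.40-fold higher (2.77 to 4.2). CFL2, a muscle-type cofilin that severs actin, was 2.69-fold higher (2.37 to 3.06). F2RL1, a receptor that proteases activate, was 2.29-fold higher (1.93 to 2.72). GNPDA1, which deaminates glucosamine phosphate, was 2.30-fold higher (2.10 to 2.52). TFE3, a transcription factor of lysosomal genes, stood at 12.0 and 23.3 FPKM, 1.95-fold higher (1.82 to 2.10). ZNF672, a zinc finger gene, stood at 2.70 and 6.23 FPKM, and MRPL10 and ATP5D were also among the largest on this side.

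On the lower side, C1GALT1C1, the chaperone of the enzyme that extends O-linked sugars (chromosome X, 120625793 to 120630150), had 292 counts with SFA and 26 with SFE, 11.2-fold lower (7.51 to 17.5). ZNF282, a zinc finger gene, stood at 29.9 and 9.44 FPKM, 3.16-fold lower (2.90 to 3.45). SUMO3, a protein modifier, stood at 32.9 and 11.8 FPKM. HACD2, which elongates very long fatty acids, stood at 29.2 and 11.0 FPKM, 2.65-fold lower (2.45 to 2.87), on the side opposite to the fatty acid list of which it is no member. CANT1, a calcium-activated nucleotidase, was 2.57-fold lower (2.36 to 2.80), and LSM4, an RNA-binding protein of the splicing machinery, 2.39-fold lower (2.19 to 2.60). MT-CO1, MT-ND5, MT-CO2, CITED2 and RPS15 were also among the largest on this side. None of the genes named for size has a second culture against which its value could be set.

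Where genes overlap, a difference in 1 gene was often not seen in the locus, that is, the summed counts of all listed genes that overlap each other. Of the 107 genes past 2-fold that overlap another gene, the locus was also past 2-fold in the same direction for 21, within 1.2-fold for 62 and on the opposite side for 40. These last 2 counts share members. In a locus where the gene holds few of the counts, the sum can differ little whatever that gene does. RP11-542C16.2, for example, had 73 and 0 counts in a locus of 24287 and 24217. How many of the 62 are of this kind was not tested. The 2-fold limit was set on log2(FPKM + 1) for a gene and on the ratio of summed counts for a locus. Of the 58 protein-coding genes among them, 17 had a locus past 2-fold in the same direction.

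NUDT3, a phosphatase of inositol phosphates, and RPS10-NUDT3, a read-through transcript of a ribosomal protein gene and NUDT3, lie in 1 locus. NUDT3 had 16 counts with SFA and 1570 with SFE, and RPS10-NUDT3 had 179 and 1. The gain of NUDT3 in counts was larger than the loss of RPS10-NUDT3. Their locus on chromosome 6 held 22159 and 21421 counts, 1.03-fold lower, most of them from RPS10. RPS10 alone had 21867 counts with SFA and 19756 with SFE, so the sum cannot show what NUDT3 does. TMEM189-UBE2V1, another read-through gene, had 0 and 318 counts, at least 106-fold higher by the floor of 3 counts, while its locus held 3135 and 3451. PIGY had 41 and 1 counts in a locus of 524 and 473. RP13-1032I1.10, which spans MRPL12 and SLC25A10, had 464 and 51 counts in a locus of 4268 and 5346. XXbac-BPG32J3.22, which overlaps CSNK2B, had 112 and 942 counts in a locus of 5149 and 4920.

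A name that joins the names of 2 other listed genes is the usual form for a read-through gene. Of 33 such kept genes, 9 passed 2-fold, 3 higher and 6 lower. This stands beside 1.33% of all kept genes and 107 of the 7500 kept genes that overlap another. The locus of each of the 9 lay within 1.5-fold. Read-through genes named otherwise are not in this count. Where the read-through gene holds few of the counts of its locus, the sum can differ little whatever that gene does. PALM2-AKAP2, with 223 counts with SFA and 36 with SFE, held more of its locus, which had 572 and 384 counts, 1.49-fold lower. PPAN-P2RY11 had 594 counts with SFA and 210 with SFE in a locus of 4963 and 4977. SENP3-EIF4A1 had 0 and 149 counts in a locus of 21920 and 21063. C15orf38-AP3S2, which spans ARPIN and AP3S2 and is not among the 9, had 1 and 168 counts.

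Other overlapping genes had a difference in the locus too, in full or in part. IMP3, a protein of the small subunit processome, had 21 counts with SFA and 1264 with SFE, and its locus, which holds SNX33 and an antisense gene, had 3092 and 4460, 1.44-fold higher. C6orf106 had 613 and 2812 counts, 4.59-fold higher (4.2 to 5.01), and its locus 725 and 2929. POLE3, a histone-fold subunit of DNA polymerase epsilon, had 2600 and 882 counts, 2.95-fold lower (2.73 to 3.19), and its locus 2630 and 906. For C6orf106, POLE3, TAF7, MCL1 and BAK1, the gene holds most of the counts of its locus, so the locus adds little of its own.

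**Figure D5:**
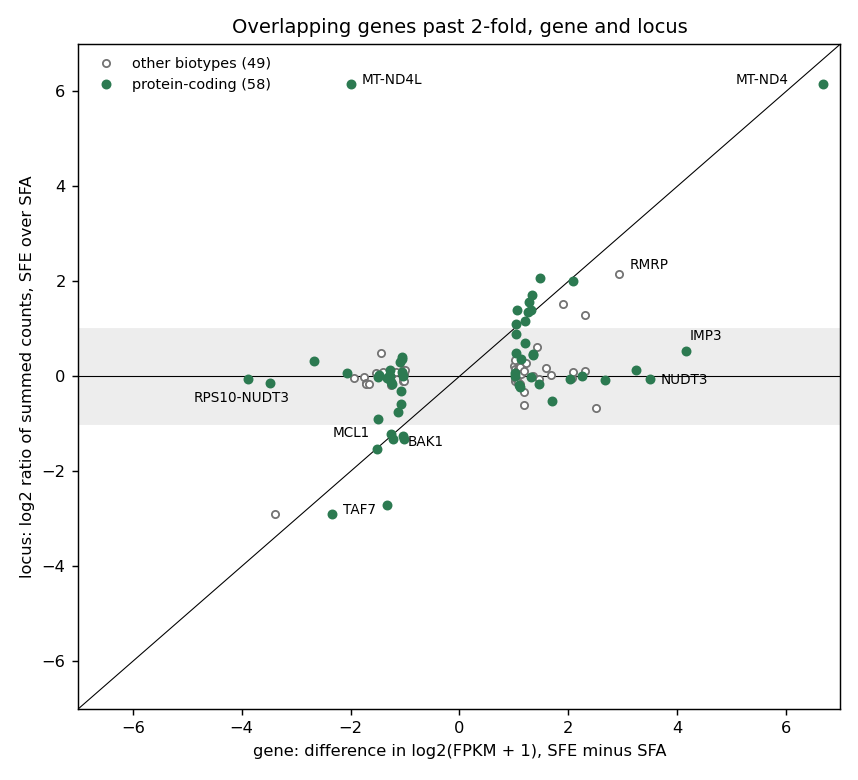
Genes past 2-fold that overlap another listed gene, with the gene's difference in log2(FPKM + 1), SFE minus SFA, on the horizontal axis and the log2 ratio of the summed counts of its locus on the vertical axis. Filled points are the 58 protein-coding genes and open points the 49 others. The grey band is less than 2-fold for the locus and the diagonal marks equal plotted values. The gene axis has 1 added to each FPKM, so equal changes in counts can lie off the diagonal, as for TAF7 (-2.34 and -2.90). For 62 of the 107 genes the locus lies within 1.2-fold, which a gene with few of the counts of its locus gives whatever its own difference.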

How the data were processed

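Gene expression of AGS cells was measured by RNA sequencing, and the analysis used 1 library with 12 µM SFA and 1 with 18 µM SFE, grouped by the treatment label. The DMSO library was not used here. The authors deposited whole-number counts and FPKM for each gene and library. The deposited FPKM equals the count divided by 1 gene length and the library's total count, since lengths implied by the libraries differed by at most 0.0551%. The build hg38 and the tools StringTie 1.2.3 and HISAT2 2.0.4 are named, per the submitters' processing notes, without roles or order. The counting tool, its strand setting and the annotation are not given in the sources used here. Of the identifiers, 98.5% matched GENCODE 29, from which biotypes were taken, and 94.9% of these had the same start and end.

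Genes at 1 FPKM or more in either library were kept, with 1 identifier per name. Differences are log2(FPKM + 1), which understates the change of low genes. Folds are ratios of counts over total counts with exact conditional (Clopper-Pearson) 95% intervals. Reads carry no molecular identifiers, so intervals and the floor of 3 counts (0.220 CPM in each library) cover counting error only. With 1 library a side no count model could be fitted and no p-value was computed. Listed genes that overlap each other were joined to loci and their counts summed. The code for ratios, intervals and 2-fold calls was tested on simulated data. Python 3.11.15, pandas 2.3.3, NumPy 2.4.6, SciPy 1.17.1 and matplotlib 3.10.9 were used. Promoters were RefSeq sequences of GRCh38.p14.

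The comparison and the 42 gene lists, 5 of them markers of other cell types, were chosen with earlier results of these data known. The rule for named genes took protein-coding genes whose higher value was at least 5 FPKM: the 12 largest differences each way without overlap and the 6 each way with overlap. For each list it added the largest differences, at most 4, and 16 fixed genes were named at any value. The rule gave 184 genes, and those the results turn on are described, while some are not reported here. RMRP, TXNDC5, EGFR, MAFK, B2M, VIM and TRIM16 were also looked at after their values were seen, and further list members are named to show a pathway. Alternatives were a pseudocount of 0.1, a minimum of 5 FPKM, no minimum, median-ratio and upper-quartile scaling, genes without overlap, protein-coding genes, intervals wholly past 2-fold and summed loci. FPKM of all identifiers of a name summed was another. Count ratios of each gene at 2-fold, and summed identifiers for single genes, were added after the data were seen.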

Additional observations from a re-analysis of the deposited data

How the results depend on the processing

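The 79 genes at least 2-fold higher and 72 lower with SFE depended on how low genes were treated. With a pseudocount of 0.1 they numbered 257 and 195. With 5 FPKM or more they were 35 and 36 of 5223 genes, and among genes that overlap no other 19 and 25 of 3856. Among protein-coding genes alone 40 were higher and 48 lower. Count ratios of each gene, an alternative chosen after seeing the data, gave 280 and 227. The same ratios over whole loci gave 88 and 73 of 8391 loci. Fewer genes entered under the last filters. With no minimum or with median-ratio scaling the counts remained at 79 and 72, with summed identifiers they were 78 and 73, with intervals wholly past 2-fold 70 and 61, and with upper-quartile scaling 65 and 76, where the median of all genes went from 0.024 to -0.021. The interferon response median reversed from 0.10 to -0.023 over the 6 genes without overlap, and the cause was not tested. At 5 FPKM or more the BCL2 family's median was -0.15 over 6 genes and that of immediate early genes 0.13 over 9. Of 974 single genes checked, upper-quartile scaling turned the sign of 125, whose differences were at most 0.053, MT-ND1, NFE2L2 and KRT18 among them, and moved 132 beyond their counting error. Median-ratio scaling turned 2 and the smaller pseudocount 0. RN7SL1 turned when the FPKM of its identifiers was summed, and AKR1C3 when the counts of its identifiers were summed (1.5-fold lower; their summed FPKM stayed higher). No paired analysis was possible because each group has 1 library, and for the same reason no library could be left out. Depth limits genes of few counts: a library at 0 counts allows up to 0.220 CPM.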

Other observations

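RMRP is the RNA of a ribonuclease that processes mitochondrial and ribosomal RNA. Among genes past 2-fold that code for no protein, it had the most counts, though not the largest fold. It is listed under 2 overlapping identifiers on chromosome 9 with 4383 and 3162 counts in the SFA library and 33458 and 41 in the SFE library. Their sum was 7545 with SFA and 33499 with SFE, 4.44-fold higher (95% counting interval 4.33 to 4.55). RN7SL1, the RNA of the signal recognition particle, also has 2 identifiers, with 48246 and 0 counts with SFA and 33421 and 22492 with SFE. Its sum differed by 1.16-fold (1.14 to 1.17), while the identifier kept by level was 1.44-fold lower with SFE. Among host genes of small nucleolar RNAs, GAS5 stood at 12.6 FPKM with SFA and 10.2 with SFE, and ZFAS1 at 11.3 and 9.08.

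Among protein-coding genes that did not reach 2-fold, TXNDC5 and EGFR were named after their values were seen. TXNDC5, a protein disulfide isomerase, stood at 93.7 FPKM with SFA and 180 with SFE, 1.92-fold higher (1.87 to 1.98), and its locus held 7025 and 13217 counts. EGFR, the epidermal growth factor receptor, stood at 7.35 and 3.86 FPKM, 1.90-fold lower (1.76 to 2.07), with 1770 and 954 counts in its locus.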
